A study of Mus musculus with 39 samples.

Results

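The 4 nuclear factor I genes, Nfia, Nfib, Nfic and Nfix, and the ETS factor gene Etv1 were followed through granule cell maturation in the mouse cerebellum. They were taken by name as transcription factors tied to the timing of that process, and all 5 were found among the 24100 genes of the table, of which 24045 were matched to a symbol. Levels are counts per 1000000 counts of the library (CPM), and ± after a level is the SD over libraries. They are not divided by transcript length, so levels of different genes are not set against each other.

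Nuclear factor I proteins bind DNA as dimers, through an inverted repeat of the core TTGGC, and are used widely in neural and glial development. In granule neurons of the mouse they take part in axon and dendrite formation, in migration and in the late switch to mature genes. Etv1, also called Er81, belongs with Etv4 and Etv5 to the PEA3 group of ETS factors. It is induced by activity in maturing granule cells, where it activates late genes and has been placed beside nuclear factor I proteins at their promoters.

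In the in vivo libraries, ribosome-bound RNA was captured through an EGFP-tagged ribosomal protein L10a (TRAP). The tag was driven by Neurod1, a gene of differentiating granule neurons, at postnatal days 7, 12 and 21 (P7, P12 and P21; 5 libraries each). At P7 it was also driven by Atoh1, the progenitor gene that gives the Math1 libraries their name (4 libraries). The Neurod1 libraries came from lysates of whole cerebellum and the Math1 libraries from isolated progenitors, so driver line and preparation cannot be told apart. Total cerebellar RNA gave 1 input library per age. In culture, granule cells of P6 to P7 mice were taken with 100 nM UNC1999, an inhibitor of the H3K27 methyltransferases Ezh2 and Ezh1, at day 5 in vitro (DIV5). The other groups of that experiment were cells with DMSO at DIV2 and DIV5, and freshly isolated progenitors at DIV0 (2 libraries each). These mice were C57Bl/6J. A second set of cultures at DIV5 came from Ezh1(fl/fl);Atoh1-Cre mice (Ezh1 cKO, 4 libraries) and from Ezh1(wt/wt);Atoh1-Cre mice (Ezh1 wt, 5 libraries), so both carried Cre in the Atoh1 lineage. Nothing in the labels says which libraries came from separate animals or cultures, so p-values measure the spread between these libraries.

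Library totals ran from 12.1 to 38.5 M counts. Atoh1 averaged 22.9 CPM in the Neurod1 libraries of P7 and 886 CPM in the Math1 libraries, whose driver gene it is. At DIV0 it averaged 51.3 CPM. Mki67, another progenitor marker, averaged 177 CPM, 596 CPM and 1261 CPM in these groups, in the same order. No group lacked counts of any of the 7 granule lineage markers, but Gabra6 averaged only 0.031 CPM at DIV0 and 1.30 CPM in the Math1 libraries. In the Neurod1 libraries the 5 Purkinje cell markers summed to between 159 and 642 CPM, against 1744 to 3969 CPM in the inputs. All 7 astrocyte, all 7 vascular and all 6 microglial markers were lower than in the inputs. So were all 8 oligodendrocyte and all 5 interneuron markers. All 3 unipolar brush cell markers, by contrast, were called higher than in the inputs, with a median log2 fold change of 0.61. In a bulk library, fewer cells of a type and less RNA per cell cannot be told apart.

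The start regions of Etv1 and of Gabra6, the gene for the alpha-6 GABA-A receptor subunit and the classical late granule cell gene, are shown because Etv1 and Gabra6 rose together in vivo and under UNC1999, as given further on. The windows run from 250 bases before to 50 after a transcript start, in the direction of the gene, from RefSeq on GRCm38.p6. The 2 Etv1 windows are at chr12:38779832-38780131 and chr12:38783461-38783760 (both plus strand) and the Gabra6 window is at chr11:42321023-42321322 (minus strand). Capitals mark the nuclear factor I core TTGGC, which reads as GCCAA when it lies on the opposite strand. They also mark the PEA3-type ETS core AGGAAG, which reads as CTTCCT when it lies on the opposite strand. No base belonged to both motifs in these windows.
Etv1 start 1: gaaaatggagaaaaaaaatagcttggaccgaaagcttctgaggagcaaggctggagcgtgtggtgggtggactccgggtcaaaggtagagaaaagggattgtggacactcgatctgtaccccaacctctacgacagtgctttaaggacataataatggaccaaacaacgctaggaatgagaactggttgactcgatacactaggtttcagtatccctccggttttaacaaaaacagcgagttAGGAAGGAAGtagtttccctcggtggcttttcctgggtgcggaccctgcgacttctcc
Etv1 start 2: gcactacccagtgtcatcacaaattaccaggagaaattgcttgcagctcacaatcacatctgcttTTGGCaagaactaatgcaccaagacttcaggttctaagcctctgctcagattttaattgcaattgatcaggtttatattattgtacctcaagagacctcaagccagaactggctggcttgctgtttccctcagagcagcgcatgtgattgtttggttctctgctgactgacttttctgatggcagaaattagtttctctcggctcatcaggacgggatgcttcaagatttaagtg
Gabra6 start: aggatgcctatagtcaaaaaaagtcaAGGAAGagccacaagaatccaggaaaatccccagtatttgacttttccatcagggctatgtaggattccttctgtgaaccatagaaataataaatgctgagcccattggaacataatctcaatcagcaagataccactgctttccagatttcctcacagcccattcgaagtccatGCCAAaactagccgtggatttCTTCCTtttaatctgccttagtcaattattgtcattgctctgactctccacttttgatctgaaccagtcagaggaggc

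The first Etv1 window held 2 overlapping ETS cores and no nuclear factor I core, the second held 1 nuclear factor I core and no ETS core, and the Gabra6 window held 1 nuclear factor I core and 2 ETS cores. Of 32544 different windows in the RefSeq table, 46.9% held the nuclear factor I core and 35.1% the ETS core, so these matches are common. Neither the Etv1 windows nor the Gabra6 window held the full inverted repeat of the nuclear factor I core, which 12 of the 32544 windows held. Of the members, 4 had at least 1 window, and 4 of their 8 windows held the nuclear factor I core. For 7 of 9 genes placed downstream of the factors windows were used, and 6 of those 8 windows held it. The matches describe letters and not binding.

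The genes lie on different chromosomes except for Nfia and Nfib (GRCm38.p6). Etv1 is at chr12:38780082-38870483, Nfia at chr4:97578066-98118876, Nfib at chr4:82290173-82506751, Nfic at chr10:81396191-81431919 and Nfix at chr8:84704712-84801238. The transcript E130114P18Rik overlaps the start of Nfia, and its count was 0.945 to 11.9% of that of Nfia. Lyl1 overlaps one end of Nfix and Mir1191b lies in Nfic. Whether strand was used in counting is not given in the sources used here, so reads in the shared stretches may be split between the overlapping genes.

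**Figure D1:**
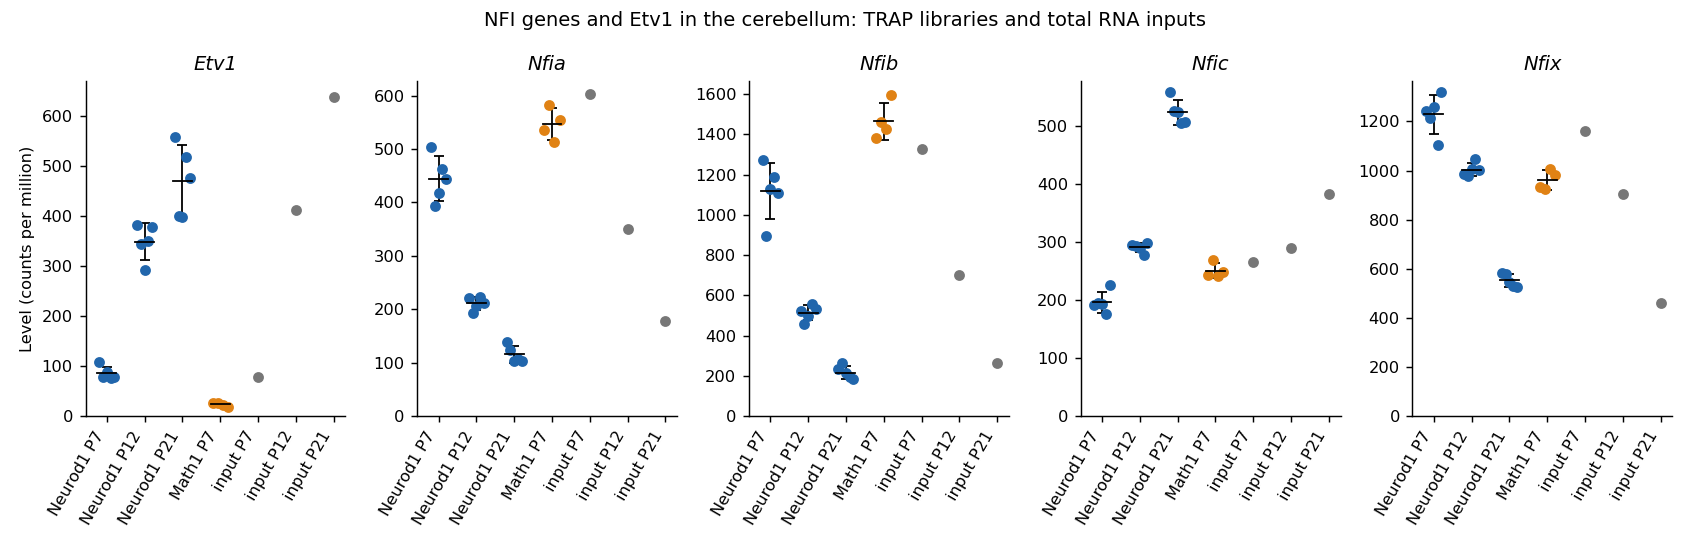
Levels (CPM, linear axis from 0, a scale for each gene) in Neurod1 TRAP libraries at P7, P12 and P21, Math1 TRAP libraries at P7 and the 3 inputs; points are libraries, lines and bars are mean and SD. Etv1 and Nfic climbed with age and Nfia, Nfib and Nfix declined, with no overlap between ages in the Neurod1 libraries.

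With age, the Neurod1 libraries gained Etv1 and Nfic and lost Nfia, Nfib and Nfix. Etv1 was 6.15-fold higher at P21 than at P7 and Nfic 3.02-fold, while Nfib was 4.58-fold, Nfia 3.42-fold and Nfix 1.97-fold lower. All 5 genes passed the test between each pair of ages.

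Etv1 had 108, 78.0, 88.7, 75.9 and 78.9 CPM at P7, then 382, 343, 292, 349 and 378 CPM at P12, and 558, 400, 398, 518 and 475 CPM at P21. The 3 ages did not overlap. Most of the climb lay between P7 and P12, with a log2 fold change of 2.04 ± 0.13 for P12 over P7 (SE; adjusted p = 7.9e-12, edgeR quasi-likelihood test) and of 0.58 ± 0.12 for P21 over P12 (adjusted p = 0.00024, edgeR). The 2 spans are 5 and 9 days long.

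Nfic, the other gene that climbed, had 191, 195, 194, 176 and 226 CPM at P7, then 296, 294, 290, 279 and 299 CPM at P12, and 559, 527, 525, 506 and 507 CPM at P21. Its ages did not overlap either, and its steps ran the other way round from those of Etv1. The log2 fold change of Nfic was 0.59 ± 0.06 for P12 over P7 (adjusted p = 8.4e-09, edgeR) and 1.00 ± 0.06 for P21 over P12 (adjusted p = 1.9e-12, edgeR).

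Nfib had 1271, 893, 1130, 1188 and 1110 CPM at P7, then 525, 457, 498, 556 and 530 CPM at P12, and 233, 263, 213, 193 and 184 CPM at P21. It declined by about the same ratio in both spans, with log2 fold changes of -1.10 ± 0.10 and -1.09 ± 0.10 (adjusted p = 1.7e-09 and 2.5e-09, edgeR). Nfia had 504, 394, 418, 463 and 443 CPM at P7, then 222, 194, 207, 222 and 212 CPM at P12, and 139, 124, 103, 107 and 104 CPM at P21. Every P21 library of Nfia and Nfib was below every P12 library, and every P12 library below every P7 library. The log2 fold changes of Nfia were -1.05 ± 0.08 for P12 over P7 and -0.72 ± 0.08 for P21 over P12 (adjusted p = 4.2e-10 and 1.7e-07, edgeR).

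Nfix declined later. It had 1244, 1215, 1259, 1105 and 1322 CPM at P7, then 986, 977, 1007, 1045 and 1001 CPM at P12, and 583, 579, 548, 531 and 528 CPM at P21. Its P7 and P12 libraries were near each other without overlap, and all P21 libraries were far below both. The log2 fold change was -0.27 ± 0.05 for P12 over P7 (adjusted p = 6.6e-05, edgeR) and -0.70 ± 0.05 for P21 over P12 (adjusted p = 7.9e-11, edgeR).

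These changes stood among many. Of 14759 genes tested for P21 over P7, 38.9% were called higher and 42.5% lower, so passing the test is common at these ages; for the members the sizes are -2.19 to 2.62 on the log2 scale, where the median of all genes was -0.05. For P12 over P7 the shares were 31.5% higher and 36.7% lower, and for P21 over P12 32.4% higher and 32.7% lower. In both spans 2 members were higher and 3 lower. Purkinje markers also climbed (5 of 5 higher at P21 than at P7; summed 521 to 642 CPM at P21 and 159 to 211 CPM at P7). The 8 oligodendrocyte markers summed to 492 to 882 CPM at P21 and 245 to 324 CPM at P7, with 5 called higher and 3 lower. Of the 7 astrocyte markers 4 were called higher and 2 lower. Their part in the member results was not tested.

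The 4 nuclear factor I genes did not keep their proportions. Their summed level was 2988 ± 194 CPM at P7, 2019 ± 65.4 CPM at P12 and 1411 ± 88.7 CPM at P21 (SD, n = 5 each). Of the counts of the 4 genes together, Nfic made up 6.59 ± 0.637% at P7, 14.5 ± 0.748% at P12 and 37.2 ± 1.19% at P21, while Nfib made up 37.3 ± 2.98%, 25.4 ± 1.07% and 15.3 ± 1.42%. These are shares of counts and not of molecules, since transcript length differs between genes, and library scaling does not enter them.

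Nfia had 14.9 ± 0.837% of the counts at P7, 10.5 ± 0.318% at P12 and 8.17 ± 0.664% at P21. Nfix went up and down again, with 41.2 ± 2.99% at P7, 49.7 ± 0.911% at P12 and 39.3 ± 0.626% at P21. In exact two-sided permutation tests of the difference in mean share, 11 of the 12 tests between ages gave p = 0.0079, the smallest this design allows (adjusted p = 0.014 over 20 tests). The shares of a library add up to the whole and the age comparisons share libraries, so these tests are not independent of each other. The exception was the Nfix share at P21 against P7, which differed by -1.94 percentage points (p = 0.19, exact permutation test; adjusted p = 0.24).

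**Figure D2:**
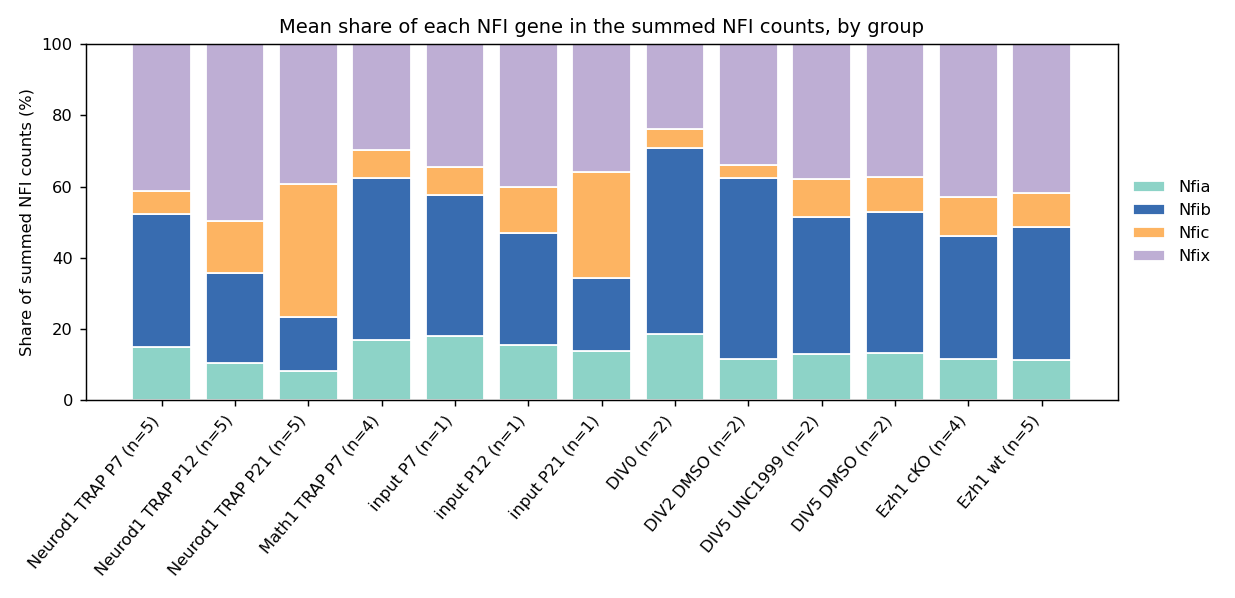
Mean share (%) of each nuclear factor I gene in their summed counts, stacked to 100% per group, with the number of libraries in brackets. The Nfic share is 37.2% in Neurod1 TRAP libraries at P21 and 29.8% in the P21 input, and no more than 14.5% in any other group.

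The inputs give the same genes in the whole cerebellum. Etv1 had 78.0, 411 and 638 CPM in the inputs of P7, P12 and P21, Nfic 266, 291 and 384 CPM, and Nfix 1160, 906 and 463 CPM. Nfia had 602, 351 and 177 CPM and Nfib 1329, 703 and 266 CPM. The order of the ages was that of the Neurod1 libraries for each of the 5 genes, with 1 library per age and no test.

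Set against the inputs with age in the fit, the Neurod1 libraries were higher in Nfix by 0.55 ± 0.07 on the log2 scale (adjusted p = 2.8e-07, edgeR) and in Nfic by 0.36 ± 0.12 (adjusted p = 0.010, edgeR). Nfia was lower by a log2 fold change of -0.20 ± 0.08 (adjusted p = 0.033, edgeR). Etv1 (0.21 ± 0.12, adjusted p = 0.11) and Nfib (0.06 ± 0.10, adjusted p = 0.58) did not pass the edgeR test. Of 15479 genes, 36.6% were called higher and 41.2% lower. The fit gives 1 difference for all ages, which for Nfic and Etv1 covers unlike values. In CPM, which lacks the scaling of the fit, Nfic averaged 196, 292 and 525 in the Neurod1 libraries of P7, P12 and P21, against 266, 291 and 384 in the inputs. Etv1 averaged 85.9, 349 and 470 in the Neurod1 libraries, against 78.0, 411 and 638 in the inputs. Whether the difference from the inputs changed with age was not tested. The Nfix call held in every setting tried, at 0.16 with scaling by library size alone, and the others moved. With no filter on low counts Etv1 was called higher at 0.29 (adjusted p = 0.039, edgeR). With scaling by library size alone Nfic was at -0.02 and Nfib was called lower at -0.34, and without the P21 input Nfic was at 0.12 and not called. The call of Nfia ended with RLE scaling (adjusted p = 0.099, edgeR), under DESeq2 (0.10), with no filter (0.22) and on leaving out any of 11 of the 18 libraries.

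At P7 the libraries of the 2 driver lines, which also differ in preparation, were compared. Etv1 was 3.60-fold higher in the Neurod1 libraries and Nfix 1.28-fold higher, while Nfib was 1.31-fold, Nfic 1.28-fold and Nfia 1.23-fold lower. The step in Etv1 thus had the direction of its later climb with age, as did those of Nfia and Nfib, whereas Nfic and Nfix had directions opposite to theirs with age.

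Etv1 had 75.9 to 108 CPM in the Neurod1 libraries, as given above, and 27.1, 26.9, 21.9 and 18.4 CPM in the Math1 libraries. The groups were well apart, with a log2 fold change of 1.85 ± 0.14 (adjusted p = 2.0e-10, edgeR). Nfix had 1105 to 1322 CPM in the Neurod1 libraries and 932, 923, 1007 and 981 CPM in the Math1 libraries (log2 fold change 0.35 ± 0.05, adjusted p = 5.2e-06, edgeR).

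The other 3 genes were lower in the Neurod1 libraries, without overlap. Nfib had 893 to 1271 CPM there, against 1381, 1460, 1426 and 1595 CPM in the Math1 libraries (-0.39 ± 0.10, adjusted p = 0.0017, edgeR). Nfic had 176 to 226 CPM, against 244, 270, 241 and 249 CPM in the Math1 libraries (-0.36 ± 0.06, adjusted p = 1.9e-05, edgeR). Nfia had 394 to 504 CPM, against 536, 583, 514 and 554 CPM in the Math1 libraries (-0.30 ± 0.09, adjusted p = 0.0045, edgeR); against Math1 libraries 3 and 4 alone its adjusted p was 0.064.

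Of 14759 genes in that comparison, 36.5% were called higher and 35.8% lower. The 5 Purkinje markers summed to 159 to 211 CPM in the Neurod1 libraries and 9.76 to 25.8 CPM in the Math1 libraries, and the 7 astrocyte markers to 138 to 266 CPM and 234 to 489 CPM. Their part in the member results was not tested. In shares of the summed counts, Nfix was at 41.2% in the Neurod1 libraries and 29.8% in the Math1 libraries, and Nfib at 37.3% and 45.4%. All 4 shares differed at p = 0.016, the smallest the exact permutation test allows with 5 and 4 libraries (adjusted p = 0.021). These 4 tests are linked, since the shares of a library add up to the whole.

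**Figure D3:**
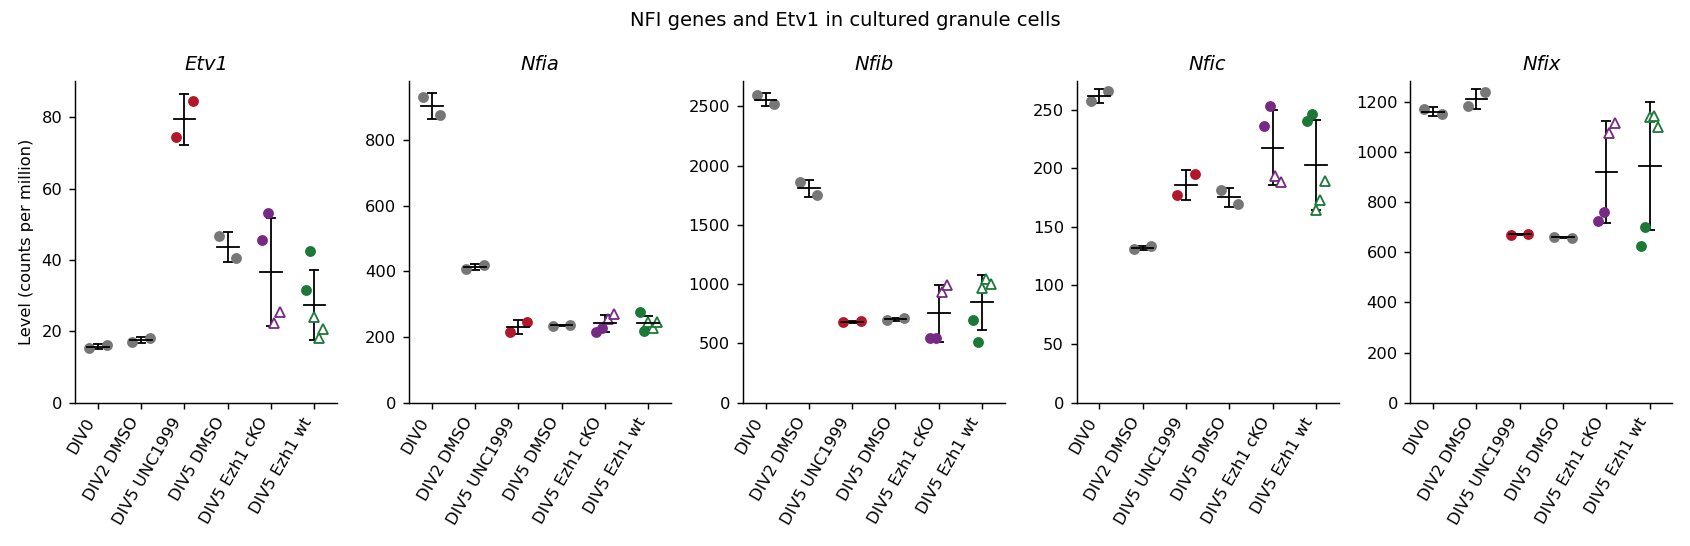
Levels (CPM, linear axis from 0, a scale for each gene) in cultured granule cells; points are libraries, lines and bars are mean and SD. In the Ezh1 groups filled circles are libraries 1 and 2 and open triangles libraries 3 to 5; Etv1 is at 74.4 and 84.5 CPM with UNC1999 and at 46.6 and 40.6 CPM with DMSO.

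In culture Etv1 climbed late and less far than in vivo, and Nfic did not climb above its starting level. From DIV0 to DIV5 with DMSO, Etv1 gained 2.55-fold, while Nfia was 4.15-fold, Nfib 3.94-fold, Nfix 1.90-fold and Nfic 1.61-fold lower at DIV5. Of 15978 genes, 40.2% were called higher and 38.2% lower; of the members 1 was higher and 4 lower.

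Etv1 had 15.2 and 16.3 CPM at DIV0, 17.0 and 18.1 CPM at DIV2 and 46.6 and 40.6 CPM at DIV5. The first 2 days gave a log2 fold change of 0.18 ± 0.11 that was not called (adjusted p = 0.16, edgeR), and the next 3 days one of 1.17 ± 0.10 (adjusted p = 8.7e-08, edgeR). Nfic had 257 and 266 CPM at DIV0, 131 and 134 CPM at DIV2 and 181 and 169 CPM at DIV5. It was lower at DIV2 than at DIV0 (-0.96 ± 0.06, adjusted p = 2.3e-09, edgeR) and higher at DIV5 than at DIV2 (0.27 ± 0.06, adjusted p = 0.0013, edgeR).

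The remaining 3 genes were lower at DIV5 than at DIV0 but differed in when they declined. Nfia had 931 and 876 CPM at DIV0, 406 and 419 CPM at DIV2 and 233 and 237 CPM at DIV5, a decline in both spans (-1.10 ± 0.06 and -0.95 ± 0.06, adjusted p = 3.2e-10 and 3.8e-09, edgeR). Nfib had 2593 and 2520 CPM, then 1858 and 1756 CPM, then 693 and 710 CPM, and declined mainly in the second span (-0.47 ± 0.04 and -1.51 ± 0.05, adjusted p = 2.1e-07 and 4.4e-12, edgeR). Nfix had 1174 and 1151 CPM at DIV0, 1184 and 1241 CPM at DIV2 and 661 and 658 CPM at DIV5, with 0.09 ± 0.05 in the first span (adjusted p = 0.091, edgeR) and -1.02 ± 0.05 in the second (adjusted p = 2.0e-10, edgeR).

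For DIV2 over DIV0, 36.4% of genes were called higher and 35.0% lower, with 0 members higher and 3 lower. For DIV5 over DIV2 the shares were 31.1% and 35.7%, with 2 members higher and 3 lower. Marker sums of other cells gained in these cultures. The 7 astrocyte markers summed to 533 to 536 CPM at DIV0, 811 to 824 CPM at DIV2 and 2254 to 2282 CPM at DIV5. The 7 vascular and meningeal markers summed to 508 to 513, 2155 to 3640 and 8385 to 9141 CPM. Nuclear factor I genes are also used by astrocytes, and the part of these cells in the member results was not tested.

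The change in vivo, P21 over P7, was set against the change in culture, DIV5 over DIV0, in a fit of 14 libraries that shares none between the 2 changes. Ages and days are not matched, so this compares spans and not times. The spans also differ in the kind of RNA and in the starting cells. Only the in vivo side is ribosome-bound RNA captured by TRAP. It starts from the Neurod1 libraries of P7, while the culture side starts from isolated progenitors. The 4 progenitor markers summed to 221 to 315 CPM in the former and to 1524 to 1564 CPM at DIV0. The part of these unlike starts in the results was not tested. Nfic had the more positive change in vivo, by 2.22 ± 0.11 on the log2 scale (adjusted p = 7.3e-11, edgeR), since it climbed in vivo and declined in culture. Etv1 had the more positive change in vivo by 1.20 ± 0.22 (adjusted p = 0.00016, edgeR). The differences for Nfia (0.22 ± 0.16), Nfib (-0.28 ± 0.18) and Nfix (-0.11 ± 0.10) were not called (adjusted p = 0.24, 0.19 and 0.32, edgeR). Of 16455 genes, 28.0% were called more positive in vivo and 38.3% more negative, and the median of all genes was -0.17; with scaling by library size alone Nfib (-0.50) and Nfix (-0.33) were called as well.

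UNC1999 was compared with DMSO at DIV5 to see which genes respond when H3K27 methylation is inhibited. Etv1 rose 1.83-fold, and none of the 4 nuclear factor I genes passed the test. Etv1 had 74.4 and 84.5 CPM with UNC1999, against 46.6 and 40.6 CPM with DMSO. The pairs did not overlap, and the log2 fold change was 0.87 ± 0.08 (adjusted p = 2.9e-05, edgeR). Of 15978 genes 6.36% were called higher and 5.53% lower.

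With UNC1999 Nfia had 216 and 246 CPM, against 233 and 237 CPM with DMSO, and Nfib 678 and 685 CPM, against 693 and 710 CPM. Nfic had 177 and 195 CPM with UNC1999, against 181 and 169 CPM with DMSO, and Nfix 671 and 673 CPM, against 661 and 658 CPM. Their log2 fold changes lay between -0.04 and 0.08 with standard errors of 0.04 to 0.06 (adjusted p from 0.40 to 0.83, edgeR), so changes of the size of that of Etv1 are far outside these errors. The summed level of the 4 genes was 1771 ± 41.1 CPM with UNC1999 and 1771 ± 3.55 CPM with DMSO (SD, n = 2 each).

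Cell type marker sums of the cultures moved as well. The 7 granule lineage markers, which include Gabra6, summed to 4560 to 4658 CPM with UNC1999 and 3413 to 3555 CPM with DMSO, with 4 of 7 called higher. The 7 astrocyte markers summed to 1912 to 2100 CPM with UNC1999 and 2254 to 2282 CPM with DMSO, with 4 of 7 called lower. The vascular markers summed to 6885 to 6991 CPM and 8385 to 9141 CPM, with 1 of 7 called lower. Their part in the Etv1 result was not tested.

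The Ezh1 cultures asked whether loss of Ezh1 alone acts on these genes. Ezh1 itself had 33.7 to 36.5 CPM in the cKO libraries and 40.7 to 49.9 CPM in the wt libraries; the groups did not overlap, but the log2 fold change of -0.34 ± 0.09 was not called (unadjusted p = 0.0051, adjusted p = 1.0, edgeR), and the table counts whole genes and so does not show the floxed exons apart. The libraries fell into 2 sets by replicate number, 1 and 2 against 3 to 5, whatever their genotype. Deviations from the mean of the 9 libraries correlated at 0.60 to 0.95 within a set and at -0.94 to -0.70 between sets (Pearson's r across genes, which are not independent replicates). What the sets stand for is not given in the labels.

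None of the 5 genes was called between Ezh1 cKO and wt. Etv1 had 45.6 and 53.1 CPM in cKO libraries 1 and 2, against 31.6 and 42.4 CPM in wt libraries 1 and 2. It had 22.3 and 25.5 CPM in cKO libraries 3 and 4, against 24.0, 18.1 and 20.5 CPM in wt libraries 3 to 5. Within the first set the genotypes did not overlap and in the second they did. The log2 fold change was 0.41 ± 0.35 (unadjusted p = 0.27, adjusted p = 1.0, edgeR), and 0.29 with the replicate number as a block (adjusted p = 0.49). Within the sets it was 0.38 in libraries 1 and 2 and 0.20 in libraries 3 to 5, neither called.

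Nfib, Nfix and Nfic differed more between the sets than between genotypes within a set. Nfib had 542 to 546 CPM in cKO and 509 to 699 CPM in wt libraries of the first set, and 931 to 992 CPM in cKO and 971 to 1046 CPM in wt libraries of the second. Nfix had 726 to 761 CPM in cKO and 627 to 703 CPM in wt libraries of the first set, and 1076 to 1118 CPM and 1100 to 1145 CPM in those of the second. Nfic ran the other way, with 236 to 253 CPM in cKO and 241 to 246 CPM in wt libraries of the first set, and 188 to 193 CPM and 164 to 189 CPM in those of the second.

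Nfia did not follow the sets in this way, with means of 221 CPM in cKO and 248 CPM in wt libraries of the first set, and 262 CPM and 240 CPM in those of the second. The log2 fold changes of the 4 genes were -0.17 to 0.09 with standard errors of 0.12 to 0.26 (adjusted p = 1.0 each, edgeR). Of 14461 genes 0.0% were called higher and 0.0% lower; 169 had an unadjusted p under 0.05, and DESeq2 called 1, Rapgefl1, named after its value was seen. The astrocyte markers summed to 4810 to 11734 CPM in the cKO and 2411 to 11447 CPM in the wt libraries, above the 2254 to 2282 CPM of the DMSO cultures. Their part was not tested.

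The response of Etv1 to UNC1999 exceeded that to Ezh1 loss by 0.46 ± 0.59 on the log2 scale, which was not called (adjusted p = 1.0, edgeR), so the 2 responses are not shown to differ. None of the other 4 members was called. Among 15453 genes 0.0% were called in either direction and 247 had an unadjusted p under 0.05; DESeq2 called 7 genes. With the replicate number as a block 3 genes were called, Grin2c, Nptx1 and Islr2, of which the last 2 were named after their values were seen.

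**Figure D4:**
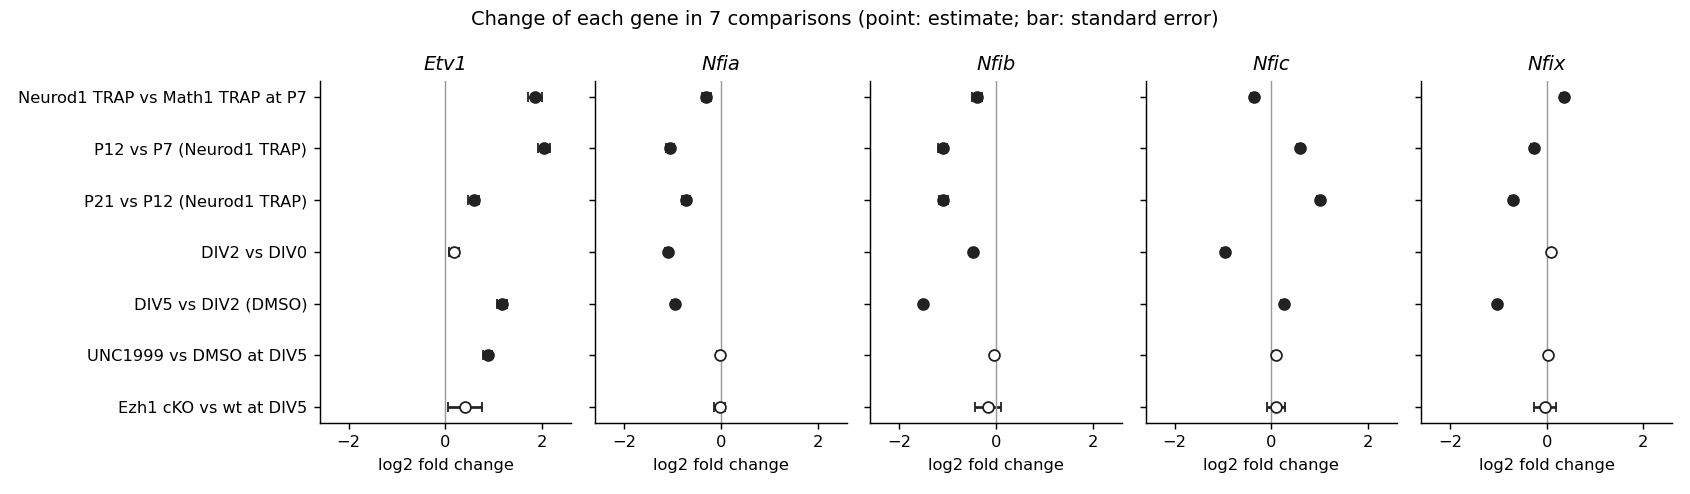
Log2 fold changes (point) with standard errors (bar) of the 5 genes in 7 comparisons; filled points were called at an adjusted p under 0.05 by edgeR. Etv1 lies right of 0 in each comparison, called in 5, and the 4 nuclear factor I genes lie near 0 in the UNC1999 and Ezh1 cKO comparisons.

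Over all 13 groups, each gene had its own order of levels. Etv1 was highest in the P21 input (638 CPM) and the Neurod1 libraries of P21 (470 ± 70.8 CPM), and lowest in the DIV2 (17.5 CPM) and DIV0 (15.7 CPM) cultures, below the Math1 libraries (23.6 CPM). The P12 input lay within the range of the Neurod1 libraries of P21. Ranges also overlapped between neighbours in the middle of the order, from the Neurod1 libraries of P7 to the UNC1999 cultures and the P7 input, and from the DMSO cultures of DIV5 through Ezh1 cKO and Ezh1 wt to the Math1 libraries.

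Nfia and Nfib were both highest at DIV0 (903 and 2556 CPM) and lowest in the Neurod1 libraries of P21 (116 and 217 CPM). For Nfia the 4 groups of cells at DIV5 and the Neurod1 libraries of P12 overlapped in a chain between 194 and 276 CPM. Nfic was highest in the Neurod1 libraries of P21 (525 CPM) and lowest at DIV2 (132 CPM); from DIV0 down to the DMSO cultures of DIV5 its neighbours overlapped. Nfix was highest in the Neurod1 libraries of P7 (1229 CPM) and at DIV2 (1213 CPM), which overlapped, and lowest in the P21 input (463 CPM).

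The likeness of patterns was measured as Pearson's r of mean log2(CPM + 1) over the 10 groups with at least 2 libraries, among 10311 genes that averaged 10 CPM or more. These points share their libraries and cell makeup, and r is a description. Nfia and Nfib had r = 0.96 with each other, while Etv1 had r = -0.85 with Nfib, -0.73 with Nfia and 0.67 with Nfic. Most like Etv1 were Rab5if (0.97), Phactr3 (0.97) and Cbx6 (0.97). Most like Nfia were Hnrnpdl (0.99), Smad4 (0.98) and Plk3 (0.98), and most like Nfib were Smad2 (0.99), Zfp532 (0.98) and Creb1 (0.98). Pigf (0.96) and Csnk1g2 (0.96) were among those most like Nfic, and Actr1a (0.96), Vopp1 (0.94) and Csnk1e (0.94) most like Nfix.

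The closest relatives of Etv1 had its direction in some spans and not in others. At P7 the Neurod1 libraries were higher than the Math1 libraries in Etv4 (0.71 ± 0.27, adjusted p = 0.022, edgeR) and Etv5 (0.79 ± 0.25, adjusted p = 0.0091, edgeR). The call of Etv4 was lost without Math1 replicate 2 or Neurod1 replicate 4 (adjusted p = 0.084 and 0.063) and against Math1 libraries 3 and 4 alone (0.16), and that of Etv5 against Math1 libraries 1 and 2 alone (0.10). Etv5 averaged 51.7 CPM at P7, 90.6 CPM at P12 and 38.3 CPM at P21, higher at P12 than at P7 (0.82 ± 0.23, adjusted p = 0.0036, edgeR) as Etv1 was, and lower at P21 than at P12 (-1.08 ± 0.23, adjusted p = 0.00040, edgeR), where Etv1 was higher. Etv4 was at 0.02 ± 0.24 for P12 over P7 (adjusted p = 0.95, edgeR) and lower at P21 than at P12 (-0.73 ± 0.24, adjusted p = 0.012, edgeR). At P21 Etv4 had 4.30 ± 1.99 CPM and at P7 7.94 ± 1.73 CPM (log2 fold change -0.71 ± 0.24, adjusted p = 0.011, edgeR), and Etv5 had 38.3 ± 16.6 CPM at P21 and 51.7 ± 6.76 CPM at P7 (-0.26 ± 0.23, adjusted p = 0.30, edgeR; n = 5 each). Without replicate 4 of P21, Etv5 was called lower, at -0.50. In culture both were higher at DIV5 than at DIV0, Etv5 with 127 ± 0.672 CPM at DIV5 and 33.4 ± 0.702 CPM at DIV0 (1.82 ± 0.06, adjusted p = 3.3e-12, edgeR) and Etv4 by 1.35 ± 0.14 (adjusted p = 4.8e-07, edgeR). They gained in the first 2 days, where Etv1 was not called: for DIV2 over DIV0 Etv5 was at 1.78 ± 0.06 and Etv4 at 1.06 ± 0.14 (adjusted p = 5.1e-12 and 1.2e-05, edgeR). For DIV5 over DIV2, where Etv1 gained, Etv5 was at 0.04 ± 0.06 and Etv4 at 0.30 ± 0.13, neither called (adjusted p = 0.55 and 0.052, edgeR); with scaling by library size alone both were called higher, at 0.18 and 0.44, and without DIV2 replicate 2 Etv4 was, at 0.51. The change in vivo was the more negative for both, by -2.15 ± 0.46 for Etv5 and -2.13 ± 0.46 for Etv4 (adjusted p = 0.00096 and 0.00075, edgeR). Neither was called with UNC1999 or in Ezh1 cKO cultures. The inputs had 22.5 to 27.5 CPM of Etv4, above the Neurod1 libraries at each age.

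Of 9 genes that work in mouse granule cells placed downstream of nuclear factor I proteins or Etv1, at P21 against P7 the Neurod1 libraries had 5 higher and 4 lower, with a median log2 fold change of 3.69 beside -0.05 for all genes. Among the higher ones were the receptor genes Gabra6 and Grin2c, the secreted signal Wnt7a and Tiam1, an activator of the GTPase Rac. Grin2c, the NMDA receptor subunit of mature granule cells, had 391 ± 43.3 CPM at P21 and 2.36 ± 1.29 CPM at P7 (7.56 ± 0.25, adjusted p = 1.3e-16, edgeR; n = 5 each). Gabra6 had 1253 ± 110 CPM at P21 and 49.6 ± 14.8 CPM at P7 (4.83 ± 0.33, adjusted p = 1.5e-10, edgeR). Wnt7a gained 5.12 and Tiam1 3.69 on the log2 scale.

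The 4 lower genes at P21 were the adhesion and guidance genes Efnb1 (-2.34 ± 0.13), Cdh2 (-0.65 ± 0.12) and Cntn2 (-0.62 ± 0.16), which early granule cells use in migration and axon contact, and the scaffold gene Itsn1 (-0.42 ± 0.09; adjusted p from 1.5e-13 to 0.0011 over the 4, edgeR). Efnb1 and Tiam1 went other ways in culture. Efnb1 was higher at DIV5 than at DIV0 by 1.46 ± 0.08 (adjusted p = 4.3e-10, edgeR), and its change in vivo was the more negative by -3.87 ± 0.24 (adjusted p = 8.8e-10, edgeR). Tiam1 was lower at DIV5 by a log2 fold change of -1.59 ± 0.07 (adjusted p = 3.1e-11, edgeR), and its change in vivo was the more positive by 5.21 ± 0.17 (adjusted p = 1.0e-12, edgeR). In all, 6 of the 9 genes were higher and 3 lower at DIV5 than at DIV0.

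At P7, between the driver lines, the Neurod1 libraries had 3 of these 9 genes higher and 4 lower (median -0.19, beside 0.01 for all genes). Gabra6 had 49.6 ± 14.8 CPM in the Neurod1 libraries (n = 5) and 1.30 ± 1.67 CPM in the Math1 libraries (n = 4; 4.93 ± 0.44, adjusted p = 1.9e-08, edgeR). Grin2c, by contrast, was lower in the Neurod1 libraries, with 2.36 ± 1.29 CPM against 12.5 ± 2.36 CPM in the Math1 libraries (-2.45 ± 0.25, adjusted p = 2.6e-08, edgeR).

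With UNC1999, 4 of the 9 genes were called higher and 0 lower (median 0.17, beside 0.00 for all genes). Gabra6 had 62.9 ± 2.88 CPM with UNC1999 and 16.9 ± 0.695 CPM with DMSO (1.90 ± 0.09, adjusted p = 1.1e-07, edgeR; n = 2 each). Grin2c had 49.3 ± 6.37 CPM with UNC1999 and 12.4 ± 1.53 CPM with DMSO (1.99 ± 0.12, adjusted p = 8.1e-07, edgeR). The call of Itsn1 (0.17 ± 0.05, adjusted p = 0.030, edgeR), was lost under DESeq2 at an adjusted p of 0.17. In Ezh1 cKO cultures 0 of the 8 tested were called by edgeR; Efnb1 has no values in those libraries.

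Of 11 genes of the calcineurin and NFAT pathway and of the BDNF, TrkB and ERK5 pathway, which have been reported in mouse granule cells to time Etv1 and nuclear factor I binding, 6 were higher and 5 lower at P21 than at P7 (median log2 fold change 0.43, beside -0.05 for all genes). Bdnf, the neurotrophin, had 41.6 ± 7.71 CPM at P21 and 1.47 ± 0.185 CPM at P7 (4.98 ± 0.18, adjusted p = 7.7e-17, edgeR; n = 5 each). The 3 calcineurin subunit genes Ppp3ca, Ppp3cb and Ppp3r1 were each called higher, and of the NFAT factor genes Nfatc2 was higher (2.11 ± 0.16, adjusted p = 4.6e-11, edgeR) and Nfatc1, Nfatc3 and Nfatc4 lower, Nfatc4 by a log2 fold change of -1.90 ± 0.24 (adjusted p = 1.8e-07, edgeR). At DIV5 over DIV0 3 of the 11 were higher and 7 lower, Bdnf by 3.89 ± 0.25 (adjusted p = 3.3e-07, edgeR) among the higher ones. With UNC1999 1 of the 11 was called, Ppp3ca (0.31 ± 0.05, adjusted p = 0.00063, edgeR).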

How the data were processed

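Polyadenylated RNA was sequenced as 75-base single-end reads, per the labels' protocols. The authors deposited 1 table of estimated counts per Entrez gene, in whole numbers without scaling. Salmon 0.8.2 and the build mm10 appear in the submitters' processing notes; the annotation, the summing of transcripts to genes and any filter are not given in the sources used here. In the 9 Ezh1 libraries 1041 genes are blank and were left out of their fits.

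Members and gene lists were chosen with earlier results of these data known, and the members by name. Named are the 5 members in every comparison, the relatives, downstream and timing lists by count and, where a sentence needs it, by value, and the 3 genes most like each member; 2 genes that this rule covers are not reported here. CPM is the count over the library total. Tests used edgeR 4.0.16 in R 4.3.3 (filterByExpr with a minimum count of 10 and total of 15, TMM scaling, robust quasi-likelihood F tests, two-sided), with Benjamini-Hochberg adjustment over all genes tested and calls at an adjusted p under 0.05. The steps were checked on simulated counts. One fit held the TRAP groups and another the 4 culture groups; the input fit holds 15 Neurod1 libraries and 3 inputs with age as a factor. Shares were tested by exact permutation (scipy 1.17.1). Alternatives were other scalings, DESeq2 1.42.0, no filter, a replicate block, fewer groups and left-out libraries; those on the Ezh1 sets were chosen after seeing the data. Counts carry no molecular identifiers. Library totals of 12.1 to 38.5 M put 1 CPM at 12.1 counts or more.

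Replicate numbers were checked by correlating deviations from group means. In the Ezh1 cultures the 4 same-numbered pairs gave r = 0.857 to 0.927. Pairs of cKO and wt libraries with different numbers in the same set gave r = 0.778 to 0.920. The numbers thus sort those libraries into 2 sets and are not shown to pair them within a set. In the TRAP libraries and the other cultures the numbers are not shown to pair the libraries (r from -0.43 to 0.33 for the same number). The 27 same-numbered TRAP pairs had a median r of 0.050, against -0.0077 for the other pairs. In the other cultures the 2 libraries of a group deviate from its mean as mirror images, so these values cannot settle pairing.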

Additional observations from a re-analysis of the deposited data

Results flagged for a closer look

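For 2 genes the change in vivo (P21 over P7, Neurod1 libraries, n = 5 each) differed from the change in culture (DIV5 over DIV0, n = 2 each) by the test of the difference itself. Nfic differed by 2.22 on the log2 scale (adjusted p = 7.3e-11, edgeR), with 1.59 in vivo and -0.69 in culture as fitted separately. Etv1 differed by 1.20 (adjusted p = 0.00016, edgeR), with 2.62 in vivo and 1.35 in culture. The 2 changes also start from different cells, the Neurod1 line at P7 and isolated progenitors at DIV0. Only the change in vivo is of TRAP RNA. In culture the 7 vascular markers went to 8385 to 9141 CPM at DIV5, against 508 to 513 CPM at DIV0, and in the Neurod1 libraries they summed to 12.7 to 19.2 CPM at P21 and 16.5 to 27.5 CPM at P7. Their part in these differences was not tested.

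No library of the 5 genes stood far from the rest of its group in the 30 sets examined, each 1 gene in 1 group of 4 or 5 libraries. Chance alone would flag about 1 in 20. The sets of different genes share libraries and are not independent.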

How the results depend on the processing

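Of 181 alternative fits, the count of members called matched that of the reported fit in 180 of them to within 1.5 times. With scaling by library size alone 4 members were called in the difference between in vivo and culture. That margin lets 2 pass as a match for 3, as it did against the inputs, where left-out libraries gave counts of 2 to 3. The match is also of the count alone and not of which genes were called. The counts of all genes called moved under UNC1999 (955 with DESeq2 and 932 to 1297 with 1 library left out, lowest without UNC1999 replicate 2, DMSO replicate 1 (939) or UNC1999 replicate 1 (1098), a lone library then being taken to vary like the other groups), for Ezh1 cKO (1 with DESeq2 and 1, Rapgefl1, with a term for the set of replicate numbers) and for the UNC1999 effect minus the Ezh1 cKO effect (7 with DESeq2, 3 with the replicate block). Among the log2 fold changes given above, the block changed no other call except that of Etv4 for DIV5 over DIV2 (0.28, adjusted p = 0.040, edgeR). That one was also called with RLE scaling, no filter and only the groups compared (0.32 to 0.36). Over all genes the block did change calls, with 1546 genes called under UNC1999 against 1899 in the reported fit. With the block Etv1 was at 2.62 for P21 over P7.

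Signs that turned belonged to values that were not called, except for Nfic against the inputs. Against the inputs, scaling by library size alone put Etv1 at -0.20, Nfib at -0.34 and Nfic at -0.025, and left-out libraries put Nfib between -0.00081 and 0.18. For Ezh1 cKO, Nfix was at 0.030 with the block, 0.038 with the set term and 0.13 in libraries 1 and 2, Nfia at 0.14 in libraries 3 to 5 and Nfic at -0.028 in libraries 1 and 2. In the difference between in vivo and culture Nfia was at -0.00189 with library size alone, and Etv4 for P12 over P7 at -0.00100.

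With 1 library left out, Etv4 for P12 over P7 lay between -0.13 and 0.15, Nfix for DIV2 over DIV0 lay between -0.022 and 0.080, Nfia with UNC1999 between -0.11 and 0.057, and for Ezh1 cKO Nfia between -0.070 and 0.055 and Nfix between -0.14 and 0.054. The Ezh1 shares then lay between -0.355 and 1.19 points for Nfia, -0.049 and 2.34 for Nfic, and -0.614 and 2.18 for Nfix. With only DIV0 and DIV2 in the fit, Nfix was called higher at DIV2 (0.09, adjusted p = 0.044, edgeR). Etv1 kept its call under UNC1999 in each of 10 alternatives, at 0.75 to 0.99. The cause of these moves was not tested. Groups of 2 libraries limit what the cultures can show.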
